A study of Mus musculus with 24 samples.

Results

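Superoxide dismutases, catalase, glutathione peroxidases and peroxiredoxins were followed as 10 genes, Sod1, Sod2, Sod3, Cat, Gpx1, Gpx3, Gpx4, Prdx3, Prdx5 and Prdx6. Their probes were found by gene name in the array design, and all 10 were present, on 15 of the 41174 probes that are not controls and among 27962 gene names. The cells were immortalized mouse embryonic fibroblasts (MEFs) of genotype Ku70-/-, a deletion of Ku70 (Xrcc6), a protein of DNA double-strand break repair. Every group, the untreated controls included, carried this deletion, so no comparison here involves cells with Ku70, and the cells are 1 immortalized line rather than a tissue. Potassium bromate (KBrO3) is an oxidizing agent and bisphenol A (BPA) is a plasticizer chemical. Cells received 20 mM KBrO3 for 1 hr and were collected after a further 3 or 23 hr in fresh medium, which is 4 or 24 hr after the start of KBrO3. For co-exposure, 150 uM BPA was present for 1 hr before KBrO3, during it, and until collection. These treatments and an untreated control labelled 4 hr made up the first set of 15 arrays, 3 in each of 5 groups. BPA alone at 150 uM, at 4 or 24 hr, and an untreated control with no time in its label made up the second set of 9 arrays, 3 in each group. The methods give BPA-only cells 1 hr longer in BPA than the labels do, and no control is labelled 24 hr. Treatment and time in culture can therefore not be told apart where 24 hr arrays are compared with control.

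Superoxide dismutases turn superoxide, a by-product of respiration and of oxidase enzymes, into hydrogen peroxide. Sod1 is the copper and zinc enzyme of the cytosol, Sod2 the manganese enzyme of the mitochondrial matrix and Sod3 the secreted enzyme. Hydrogen peroxide is then removed by catalase in peroxisomes, by the selenium-containing glutathione peroxidases with glutathione as the electron donor, and by the peroxiredoxins, most of which are recharged by thioredoxin. Lipid hydroperoxides are reduced mainly by Gpx4. Transcription of many genes of this kind is known to respond to NRF2, which binds antioxidant response elements, and Sod2 is a known target of NF-kappaB.

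The 60-base probes behind the largest changes show what each array feature reads, in the direction of the transcript, with the position that the array design gives on mouse build mm7. All 4 probes of Prdx6 are shown because they differed in how much they rose, in order along the transcribed strand of chromosome 1.
Prdx6 probe 1, at chr1:161211323-161211382: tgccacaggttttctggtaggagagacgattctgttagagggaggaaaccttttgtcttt
Prdx6 probe 2, at chr1:161209633-161209692: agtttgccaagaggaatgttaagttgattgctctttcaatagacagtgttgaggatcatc
Prdx6 probe 3, at chr1:161203565-161203624: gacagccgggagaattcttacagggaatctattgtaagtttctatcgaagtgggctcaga
Prdx6 probe 4, at chr1:161202944-161203003: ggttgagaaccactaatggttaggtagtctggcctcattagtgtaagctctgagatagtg
The 3 probes of Sod1 lie in this order on chromosome 16 and did not change alike. Probe 3 carries a RefSeq transcript in the array design, and probes 1 and 2 carry another transcript record.
Sod1 probe 1, at chr16:90272955-90273014: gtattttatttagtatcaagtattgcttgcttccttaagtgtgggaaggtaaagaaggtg
Sod1 probe 2, at chr16:90273863-90273922: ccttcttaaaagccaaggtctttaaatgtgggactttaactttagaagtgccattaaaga
Sod1 probe 3, at chr16:90276179-90276238: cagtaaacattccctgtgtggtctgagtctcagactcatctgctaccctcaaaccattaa
Gpx3 and Sod2, the other members with the widest ranges, were each read by 1 probe.
Gpx3, at chr11:54866691-54866750: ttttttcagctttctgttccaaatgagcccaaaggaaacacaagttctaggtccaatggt
Sod2, at chr17:11746836-11746895, minus strand: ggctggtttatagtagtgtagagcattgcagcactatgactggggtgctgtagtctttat

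Each of the remaining 6 members was read by 1 probe. For Prdx6 and Sod1 the brightest probe over the 24 arrays, probe 3 of each, stands for the gene unless another is named. No annotation of build mm7 was at hand, so exon and UTR positions of the probes are not given.

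RefSeq promoter windows on build GRCm38.p6, running from 250 bases before to 50 bases after a transcript start, were found for 8 of the 10 members, and not for Sod3 and Prdx6. The core of the antioxidant response element, TGACNNNGC on either strand, occurred in 1 of these members, Sod1, and in 12.4% of 32851 promoter windows of all genes. The Sod1 window is shown with that match in capitals, on the reverse strand, 56 bases before the start.
Sod1 promoter, at chr16:90220512-90220811: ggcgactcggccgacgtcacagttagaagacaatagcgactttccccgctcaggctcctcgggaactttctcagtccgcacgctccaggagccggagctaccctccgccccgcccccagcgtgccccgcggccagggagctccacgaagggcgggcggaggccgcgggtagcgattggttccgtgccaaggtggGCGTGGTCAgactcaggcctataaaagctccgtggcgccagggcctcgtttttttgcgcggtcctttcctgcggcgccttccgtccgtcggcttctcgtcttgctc
The AP-1 site TGANTCA, which can share its first bases with the antioxidant response element core, matched none of the members' windows and 7.81% of all windows. The GC box GGGCGG was present in at least 1 window of all 8 members and in 35.7% of all windows. A match is a description of these letters and not evidence of binding.

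Signal is given as log2 of the scanner's processed intensity minus the 75th percentile of that array, so 0 is the brightness of a probe at the upper quartile and 1 unit is 2-fold. Spots well above background made up 57.7 to 68.1% of each array in the first set, and 76.4 to 79.4% of each array in the second. Fibroblast markers were present, with 10 of 10 markers well above background on all control arrays, and by limma they moved with treatment. At 4 hr 5 of 10 were lower than control after KBrO3 alone (median log2 difference -0.21, 36.6% of all genes lower) and 9 of 10 after co-exposure (-0.53, 38.3%), with 1 higher in each. At 24 hr 10 of 10 were lower after KBrO3 alone (-1.49, 36.7%) and 10 of 10 after co-exposure (-1.89, 38.8%). Markers of other cell types were mixed. Ptprc (leukocytes), Pecam1 (endothelium) and Des (muscle) did not clear the background on any array. Cd68, a macrophage marker, did on 15 of 15 arrays of the first set and 9 of 9 of the second, and Kdr, an endothelial marker, on 14 of 15 and 9 of 9. Both were higher than control in all 4 comparisons of the first set, Cd68 by 1.16 to 2.25 and Kdr by 0.60 to 1.58 on the log2 scale. Of the epithelial markers, Epcam cleared the background on 1 of 15 and 2 of 9 arrays, Cdh1 on 0 of 15 and 8 of 9, Krt8 on 5 of 15 (no control among them) and 9 of 9, and Krt18 on 11 of 15 and 9 of 9. Cdh5 did on 0 of 15 and 8 of 9 arrays, and Adgre1 on 1 of 15 and 6 of 9. The muscle genes Myog and Myh1 did on 4 of 15 arrays each, with no control among them, and Myod1 on 9 of 15, and all 3 did on 9 of 9 arrays of the second set. All 3 were called higher after co-exposure for 4 hr, where 40.4% of all genes were, and lower from 4 to 24 hr of co-exposure (49.1%). The 4 hr rise was at least 1.25-fold for Myog and at least 3.46-fold for Myh1. No size is given for Myod1, which cleared the background on 1 of 3 controls of the first set. Myog and Myh1 entered the test only through that 4 hr group, so the filter favored both of their calls. Krt8 was called higher and Krt18 lower at 4 hr after both treatments, by at least 2.11-fold and 2.03-fold after co-exposure. Of all genes 34.5% were higher and 36.6% lower after KBrO3 alone, and 40.4% and 38.3% after co-exposure. Krt8 entered the test only through treated arrays where it was bright, so the filter favored its calls. The part of any of these markers in the results was not tested. RNA of whole cultures was measured, so fewer cells of a kind and less RNA per cell cannot be told apart. Slides held 1 to 4 arrays and were scanned together. In the first set 3 of the 5 slides held arrays of more than 1 group: 1 control array lay beside the KBrO3 4 hr arrays, KBrO3 alone lay beside co-exposure at 24 hr, and co-exposure at 4 hr lay beside KBrO3 at 24 hr. Co-exposed and 24 hr arrays shared no slide with a control, so their comparisons with control have no value within a slide. The methods describe 3 biological replicates for each condition.

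Changes were tested with limma on all probes of a set together, 27310 in the first and 31806 in the second, and a change is called where the Benjamini-Hochberg adjusted p is below 0.05. All 10 members could be tested in both sets. The number of arrays, 3 in a group, limits the precision. Calls among the members of the first set are given beside the percentage of all 18445 genes tested that were called in that direction.

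**Figure D1:**
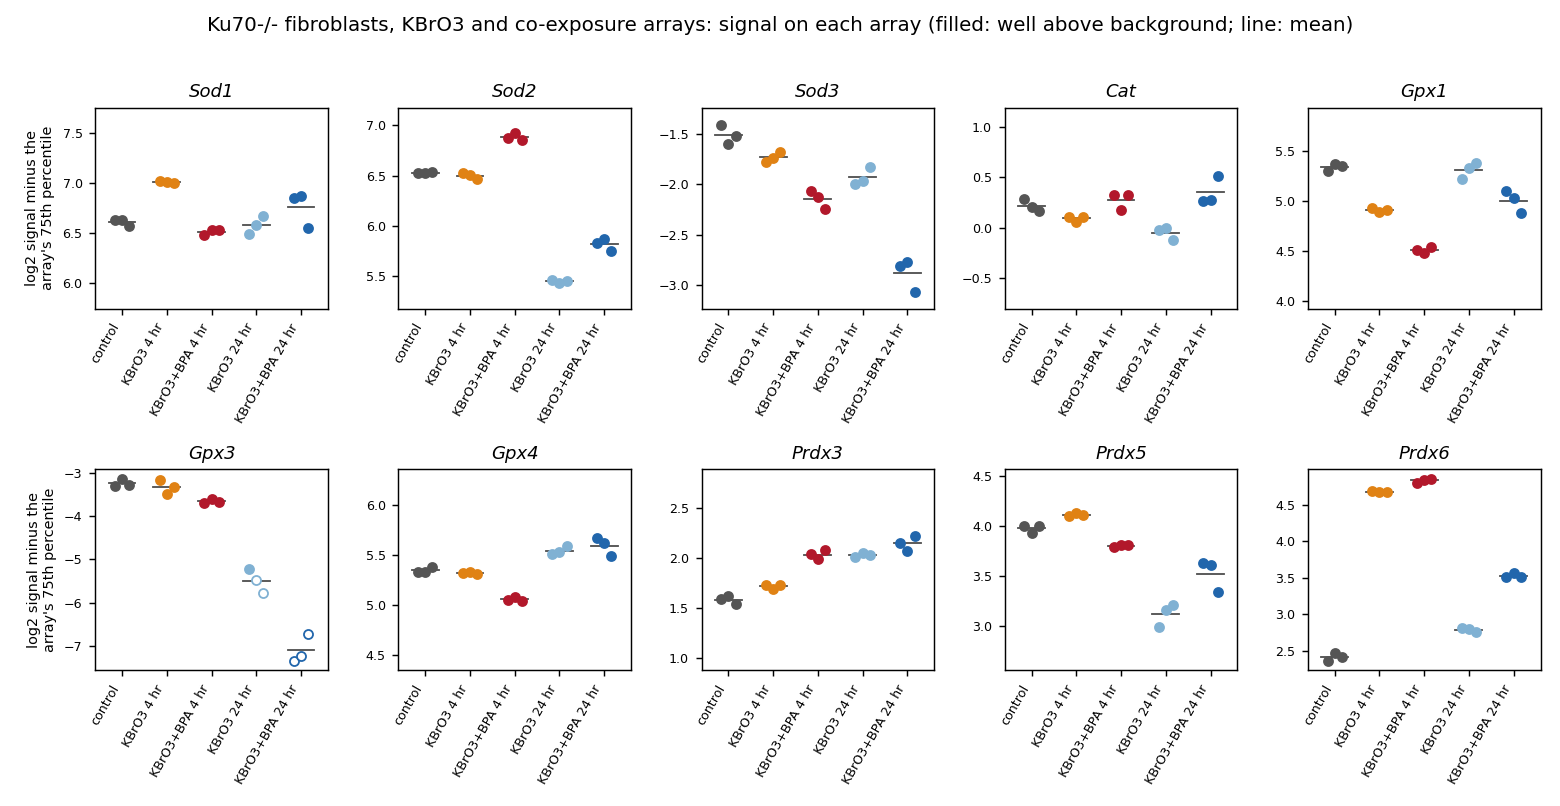
Normalized log2 signal of the 10 members on each of the 15 arrays of the first set, in 5 groups of 3, with a line at each group mean. Each panel has its own vertical axis, and open points were not well above background. Prdx6 separates most clearly at 4 hr, from 2.41 in controls to 4.68 and 4.83, and Gpx3 drops at 24 hr.

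Prdx6, a peroxiredoxin that uses glutathione and also has phospholipase activity, showed the largest rise of the 10 members. Its signal read 2.36, 2.47 and 2.42 on the 3 control arrays, 4.69, 4.67 and 4.67 at 4 hr after KBrO3 alone, and 4.79, 4.84 and 4.85 at 4 hr after co-exposure. At 24 hr it read 2.82, 2.80 and 2.75 after KBrO3 alone and 3.51, 3.57 and 3.51 after co-exposure. No treated array overlapped the controls, and the 24 hr groups lay between the controls and the 4 hr groups. By limma the log2 difference from control at 4 hr was 2.26 (SE 0.04, 4.80-fold, adjusted p = 2.4e-13) after KBrO3 alone and 2.41 (SE 0.04, 5.33-fold, adjusted p = 1.11e-13) after co-exposure. The difference at 24 hr was 0.38 (SE 0.04, 1.30-fold, adjusted p = 2.71e-06) after KBrO3 alone and 1.12 (SE 0.04, 2.17-fold, adjusted p = 1.06e-10) after co-exposure. Within the slide that KBrO3 4 hr shared with a control array the difference was 2.26.

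The other probes of Prdx6 rose with it at 4 hr but by different amounts. Probe 1, which lies 7758 bases before the brightest probe along the gene, read -3.52, -3.30 and -3.11 in controls and 0.44, 0.46 and 0.47 at 4 hr after KBrO3 alone, a 13.6-fold rise (limma log2 difference 3.77, SE 0.08, adjusted p = 2.14e-12). Probe 2 rose 4.35-fold (2.12, SE 0.04, adjusted p = 1.3e-12). Probe 4 cleared the background on no control array and on no array at 24 hr, so its rise at 4 hr is only bounded, by at least 3.08-fold with KBrO3 alone and by at least 3.31-fold with co-exposure. It entered the test only through the 4 hr groups, where it was bright, so no p-value is given. The array design gives probe 1 another transcript record than the RefSeq transcript of the other 3. Its larger difference was not tested against theirs.

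**Figure D2:**
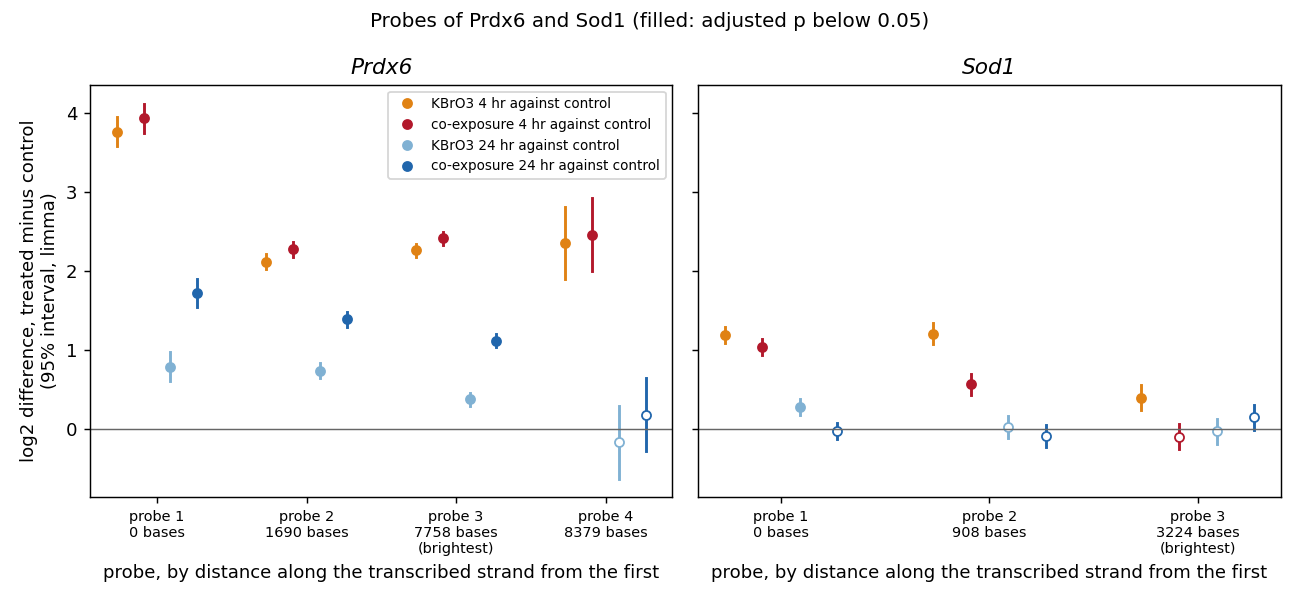
Limma log2 difference from control, with its 95% interval, for the 4 probes of Prdx6 and the 3 of Sod1, ordered by distance in bases from the first probe on build mm7, with filled points for adjusted p below 0.05. Prdx6 probe 1 rises most at 4 hr (3.77 and 3.94), and Sod1 probe 3 is near 0 after co-exposure at 4 hr while probes 1 and 2 are at 1.03 and 0.56. Probe 4 of Prdx6 did not clear the background in controls or at 24 hr.

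The mitochondrial peroxiredoxin Prdx3 was the only other member called higher in all 4 comparisons with control, and by far less. It read 1.59, 1.62 and 1.54 in controls, 1.73, 1.69 and 1.73 after KBrO3 for 4 hr, and 2.03, 1.98 and 2.08 after co-exposure for 4 hr. Its 24 hr arrays read 2.00, 2.05 and 2.03 after KBrO3 alone and 2.15, 2.07 and 2.22 after co-exposure. Every treated array was above every control array. The rise by limma was 1.10-fold (log2 0.13, SE 0.04, adjusted p = 0.0156) at 4 hr after KBrO3 alone, and this call was lost with quantile normalization, with median scaling and without control replicate 3 (log2 0.11), among others. The other 3 rises ranged from 1.36-fold to 1.48-fold.

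Prdx5, a peroxiredoxin found in mitochondria, peroxisomes and cytosol, went the other way at 24 hr. Controls read 4.00, 3.92 and 4.00, and the 24 hr arrays read 2.99, 3.16 and 3.21 after KBrO3 alone and 3.63, 3.60 and 3.34 after co-exposure, all below the controls. It was 1.81-fold lower than control after KBrO3 alone (log2 -0.85, SE 0.07, limma adjusted p = 6.68e-07) and 1.37-fold lower after co-exposure (-0.45, SE 0.07, adjusted p = 0.00015), the latter call being lost with median scaling (-0.13) and with normexp (-0.09). At 4 hr it read 4.10, 4.13 and 4.11 after KBrO3 alone (0.14, SE 0.07, adjusted p = 0.115) and 3.78, 3.81 and 3.81 after co-exposure (-0.17, SE 0.07, adjusted p = 0.0467). The co-exposure difference at 4 hr turned to 0.18 with normexp background correction and was lost whichever 1 of the 6 arrays was left out.

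Among the superoxide dismutases, Sod2 fell at 24 hr after both treatments with KBrO3. The control arrays read 6.52, 6.52 and 6.53. At 4 hr it read 6.52, 6.51 and 6.47 after KBrO3 alone and 6.88, 6.92 and 6.85 after co-exposure. The 24 hr readings were 5.46, 5.43 and 5.45 after KBrO3 alone and 5.83, 5.87 and 5.75 after co-exposure. Co-exposed arrays lay above all controls at 4 hr and below all controls at 24 hr. By limma Sod2 was 1.28-fold higher at 4 hr after co-exposure (log2 0.36, SE 0.04, adjusted p = 2.33e-06), and the difference after KBrO3 alone was -0.03 (SE 0.04, adjusted p = 0.549), but -0.41 and called with quantile normalization. By 24 hr Sod2 was 2.11-fold lower after KBrO3 alone (-1.08, SE 0.04, adjusted p = 2.27e-10) and 1.64-fold lower after co-exposure (-0.71, SE 0.04, adjusted p = 6.18e-09). With normexp the co-exposure difference was -0.32 and no longer called.

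Sod3 was lower than control in all 4 comparisons and lowest in the co-exposed cells at 24 hr. It read -1.41, -1.59 and -1.52 in controls, -1.78, -1.74 and -1.67 after KBrO3 for 4 hr and -2.07, -2.13 and -2.25 after co-exposure for 4 hr. At 24 hr it read -2.00, -1.96 and -1.83 after KBrO3 alone and -2.81, -2.78 and -3.07 after co-exposure. Every treated array was below every control. It was 2.60-fold lower after co-exposure for 24 hr (log2 -1.38, SE 0.08, limma adjusted p = 1.91e-08), 1.56-fold lower after co-exposure for 4 hr (-0.64, SE 0.08, adjusted p = 1.53e-05) and 1.34-fold lower after KBrO3 for 24 hr (-0.43, SE 0.08, adjusted p = 0.000666). The smallest of the 4, after KBrO3 for 4 hr (-0.23, SE 0.08, adjusted p = 0.0284), was lost in 10 of the alternatives tried, among them quantile normalization.

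Sod1 had the narrowest range of first-set group means among the superoxide dismutases at its brightest probe, though it moved most of them at 4 hr after KBrO3 alone. It read 6.63, 6.63 and 6.57 in controls and 7.02, 7.01 and 6.99 at 4 hr after KBrO3 alone, all above the controls (1.32-fold, log2 0.40, SE 0.07, limma adjusted p = 0.000358). The call was lost with quantile normalization. After co-exposure at 4 hr the arrays read 6.48, 6.53 and 6.53, with a difference of -0.10 (SE 0.07, adjusted p = 0.23), called at -0.34 with quantile normalization. At 24 hr the differences were -0.03 (SE 0.07, adjusted p = 0.73) after KBrO3 alone, which turned to a called 0.21 with quantile normalization, and 0.15 (SE 0.07, adjusted p = 0.094) after co-exposure, which was called with quantile normalization (0.20), median scaling (0.46) and normexp (0.48). The co-exposed arrays at 24 hr read 6.85, 6.87 and 6.56, so replicate 3 lay apart from the others. At 24 hr after KBrO3 alone probe 1 had a mean of -3.93 against -4.21 in controls, and probe 3 had 6.58 against 6.61. Probes 1 and 2 of Sod1 disagreed with probe 3 at 4 hr. They rose 2.28-fold and 2.31-fold after KBrO3 alone (1.19, SE 0.05, and 1.21, SE 0.06, adjusted p = 2.17e-10 and 2.99e-09) and 2.05-fold and 1.48-fold after co-exposure (1.03, SE 0.05, and 0.56, SE 0.06, adjusted p = 6.13e-10 and 3.59e-06). Taking the mean over the 3 probes, the co-exposure difference at 4 hr became 0.50, so the direction for Sod1 in that comparison depends on the probe.

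Catalase changed by small amounts. Cat read 0.28, 0.20 and 0.16 in controls, 0.11, 0.06 and 0.11 after KBrO3 for 4 hr and 0.33, 0.18 and 0.32 after co-exposure for 4 hr. Its 24 hr arrays read -0.03, -0.0014 and -0.12 after KBrO3 alone and 0.27, 0.28 and 0.51 after co-exposure. Of the 4 comparisons with control, KBrO3 alone at 24 hr was called, 1.2-fold lower with all 3 arrays below the controls (log2 -0.27, SE 0.07, limma adjusted p = 0.00473), and this call was lost with median scaling (-0.12). The other 3 differences were -0.12 (95% interval -0.27 to 0.03), 0.06 (-0.09 to 0.21) and 0.14 (-0.01 to 0.29), the last of which, co-exposure at 24 hr, was called at 0.45 with median scaling.

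The glutathione peroxidases did not move together. Gpx3, the secreted plasma form, fell furthest of all members. It read -3.31, -3.13 and -3.28 in controls, -3.17, -3.49 and -3.33 after KBrO3 for 4 hr and -3.70, -3.61 and -3.67 after co-exposure for 4 hr. The 24 hr readings were -5.22, -5.48 and -5.78 after KBrO3 alone, where 1 of the 3 arrays was well above background, and -7.35, -7.23 and -6.71 after co-exposure, where no array was. Every array at 24 hr was far below every control. After KBrO3 alone for 24 hr the group mean was -5.49 against -3.24 in controls (limma adjusted p = 1.44e-07), and no fold is given because 2 of the 3 arrays did not clear the background. After co-exposure for 24 hr the fall was at least 4.05-fold, with a limma adjusted p of 7.87e-10 and group means of -3.24 and -7.10. The 4 hr differences were -0.09 (SE 0.16, adjusted p = 0.648) after KBrO3 alone and -0.42 (SE 0.16, adjusted p = 0.0339) after co-exposure. The second of these was lost in 11 of the alternatives, among them each array of co-exposure left out in turn.

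Gpx1, the abundant cytosolic form, fell at 4 hr and was near its control level at 24 hr after KBrO3 alone. Controls read 5.30, 5.37 and 5.35. At 4 hr the arrays read 4.93, 4.89 and 4.91 after KBrO3 alone and 4.51, 4.48 and 4.54 after co-exposure. At 24 hr they read 5.22, 5.32 and 5.38 after KBrO3 alone, which overlapped the controls, and 5.10, 5.03 and 4.88 after co-exposure, which did not. Gpx1 was 1.35-fold lower at 4 hr after KBrO3 alone (log2 -0.43, SE 0.06, limma adjusted p = 1.9e-05) and 1.78-fold lower after co-exposure (-0.83, SE 0.06, adjusted p = 3.32e-08). With normexp the first of these became -0.14 and was no longer called. At 24 hr Gpx1 was 1.27-fold lower after co-exposure (-0.34, SE 0.06, adjusted p = 0.000167), a call lost with median scaling (-0.02) and with normexp (-0.03). After KBrO3 alone the difference was -0.03 (95% interval -0.15 to 0.09) and turned to a called 0.12 with quantile normalization.

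Gpx4, which protects membranes from lipid peroxidation, changed little against control. It read 5.33, 5.33 and 5.37 in controls, 5.31, 5.33 and 5.31 after KBrO3 for 4 hr, and 5.05, 5.08 and 5.04 after co-exposure for 4 hr. At 24 hr it read 5.50, 5.53 and 5.59 after KBrO3 alone and 5.66, 5.61 and 5.49 after co-exposure. It was 1.22-fold lower after co-exposure for 4 hr (log2 -0.29, SE 0.05, limma adjusted p = 7.86e-05; -0.0043 and not called with normexp), 1.15-fold higher after KBrO3 for 24 hr (0.20, SE 0.05, adjusted p = 0.00203) and 1.19-fold higher after co-exposure for 24 hr (0.25, SE 0.05, adjusted p = 0.000383). After KBrO3 for 4 hr the difference was -0.02 (SE 0.05, adjusted p = 0.643), but -0.38 and called with quantile normalization. Co-exposed arrays lay below all controls at 4 hr and above all controls at 24 hr.

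**Figure D3:**
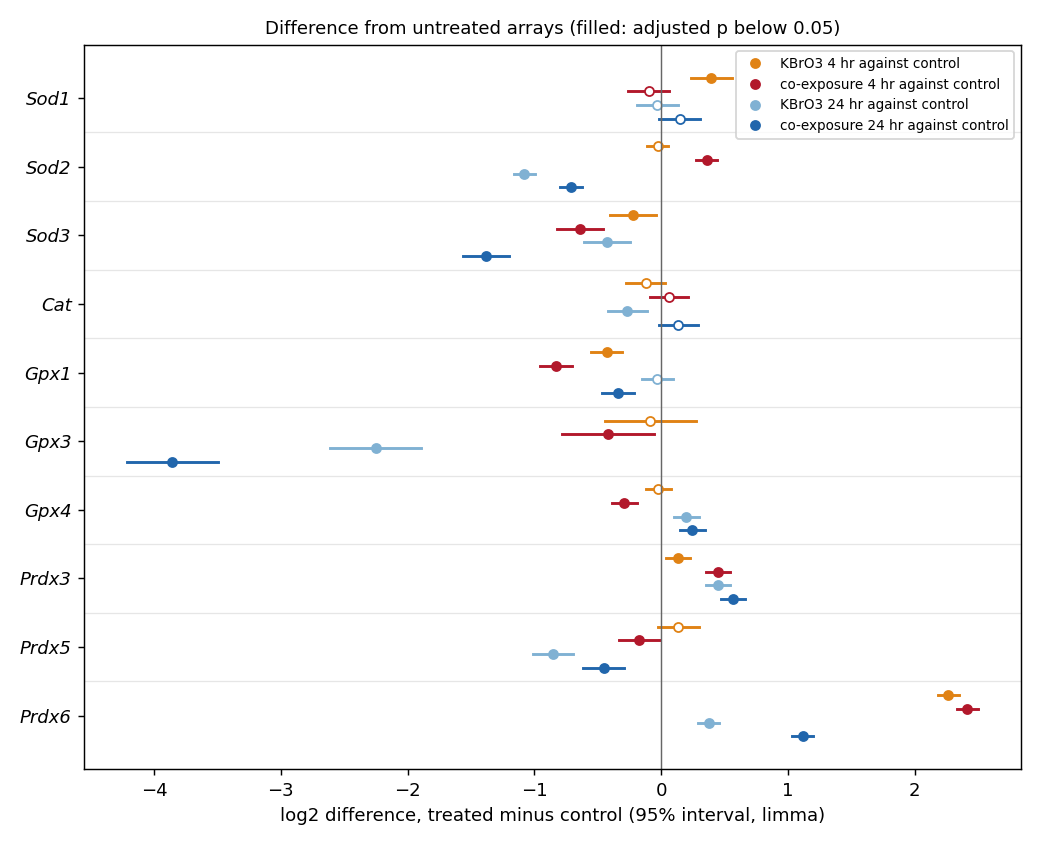
Limma log2 difference from untreated arrays, with its 95% interval, for the 10 members in the 4 comparisons of the first set, with filled points for adjusted p below 0.05. Prdx6 lies furthest to the right at 4 hr (2.26 and 2.41) and Gpx3 furthest to the left at 24 hr where 2 of 3 arrays after KBrO3 alone and all 3 after co-exposure did not clear the background, so that its points there are not measured sizes. Among the points that changed sign under another processing were Sod1 and Gpx1 after KBrO3 for 24 hr, and Sod1 and Prdx5 after co-exposure for 4 hr.

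Counted over the 10 members, calls were about as frequent as among all genes. After KBrO3 for 4 hr, 3 members were higher and 2 lower, where 34.5% of all genes were called higher and 36.6% lower. After co-exposure for 4 hr, 3 were higher and 5 lower (40.4% and 38.3% of all genes). At 24 hr, 3 were higher and 5 lower both after KBrO3 alone (29.7% and 36.7%) and after co-exposure (31.5% and 38.8%). The 4 comparisons share their control arrays. The median log2 difference over the members was -0.03, -0.14, -0.15 and -0.10 in these comparisons in turn, and over all genes tested it was 0.05, 0.05, -0.07 and -0.11.

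Setting co-exposure against KBrO3 alone at the same time asks what BPA added. At 4 hr the arrays of these groups lay on separate slides with separate scans, so BPA, slide and scan cannot be told apart there. At that time, 4 members were higher with BPA (28.8% of all genes) and 5 lower (30.3%), and at 24 hr, 5 were higher (24.9%) and 3 lower (22.8%). The difference was largest for Prdx6 among those higher at 24 hr, 1.67-fold (log2 0.74, SE 0.04, limma adjusted p = 2.66e-08), with 0.76 on the slide that held both groups. At 4 hr Prdx6 was 1.11-fold higher (0.15, SE 0.04, adjusted p = 0.0048), a call that median scaling and normexp each removed. Sod2 was higher by nearly the same amount at both times, 1.31-fold at 4 hr (0.38, SE 0.04, adjusted p = 6.44e-06) and 1.29-fold at 24 hr (0.37, SE 0.04, adjusted p = 8.2e-06). This likeness holds for the main scaling only. Median scaling moved the median of all genes by -0.14 at 4 hr and by 0.17 at 24 hr. Cat was 1.32-fold higher at 24 hr (0.40, SE 0.07, adjusted p = 0.000491) and Prdx3 1.24-fold higher at 4 hr (0.32, SE 0.04, adjusted p = 8.52e-05). None of these differences at 4 hr reached 1.5-fold.

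Members that were lower with BPA included Sod3, 1.33-fold at 4 hr (log2 -0.42, SE 0.08, limma adjusted p = 0.00117) and 1.94-fold at 24 hr (-0.95, SE 0.08, adjusted p = 2.08e-06), and Gpx1, 1.32-fold at 4 hr (-0.40, SE 0.06, adjusted p = 9.49e-05) and 1.24-fold at 24 hr (-0.31, SE 0.06, adjusted p = 0.000755). Sod1 was 1.41-fold lower at 4 hr at its brightest probe (-0.50, SE 0.07, adjusted p = 0.000142), and its probes 1 and 2 differed by -0.15 and -0.64. At 24 hr Sod1 was not called but lay higher with BPA, by 0.23 on the slide that held both groups. Gpx3 is among the 3 counted as lower at 24 hr, but no size is given, since 1 array of KBrO3 alone and no array of co-exposure was well above background, and with normexp the call was lost (-0.11). Prdx5 was lower with BPA at 4 hr (-0.31, SE 0.07, adjusted p = 0.00357) and higher with it at 24 hr (0.40, SE 0.07, adjusted p = 0.000788). The calls for Cat at 4 hr (0.18) and Prdx3 at 24 hr (0.12) were lost in most alternatives and in most omissions of a single array, with Cat at 0.04 under median scaling and Prdx3 at 0.07 under quantile normalization. With median scaling the differences for Prdx3 at 4 hr (0.17) and Gpx1 at 24 hr (-0.14) were no longer called. With normexp background correction the calls fell from 9 to 0 at 4 hr and from 8 to 3 at 24 hr.

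**Figure D4:**
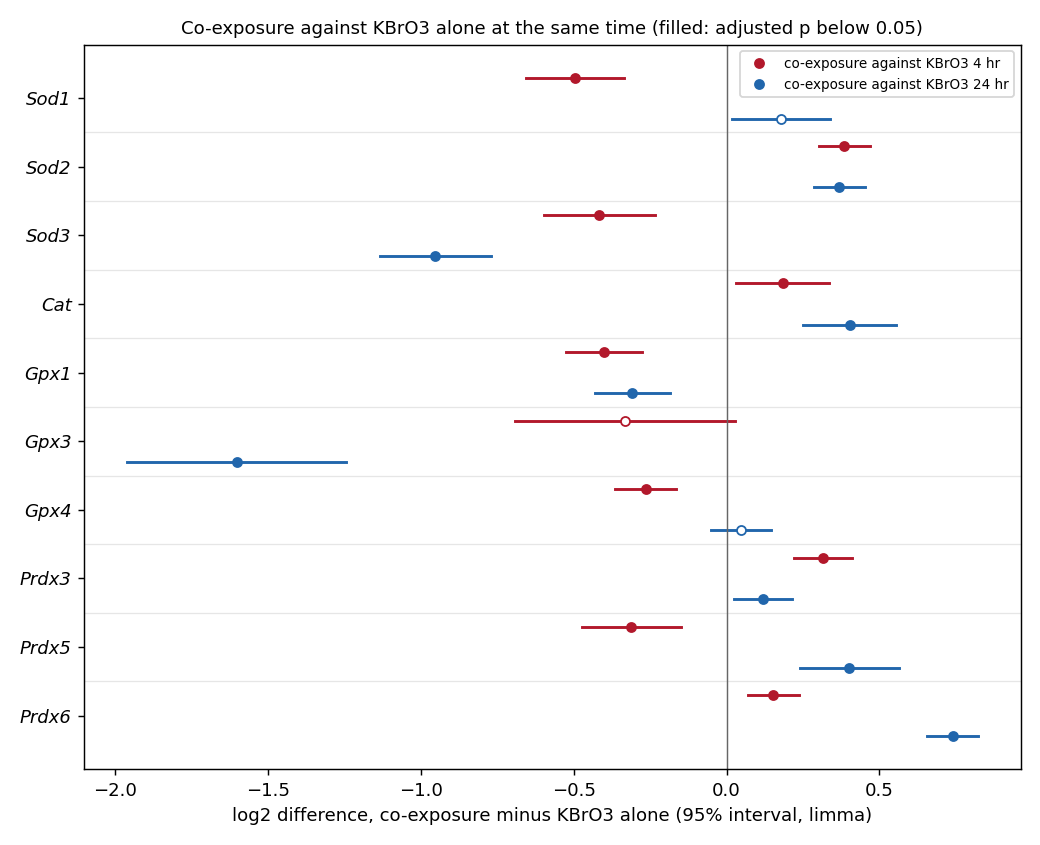
Limma log2 difference of co-exposure minus KBrO3 alone, with its 95% interval, for the 10 members at 4 and 24 hr, with filled points for adjusted p below 0.05. Sod2 lies at 0.38 and 0.37, Sod3 at -0.42 and -0.95 and Prdx5 on opposite sides of 0, and the Gpx3 value at 24 hr comes from arrays mostly not well above background.

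BPA alone was measured in the second set, which was normalized and tested separately, so its levels are not set against those of the first set. Sod2 was the single member called. It read 3.95, 3.95 and 3.50 in the controls of that set, 5.17, 5.30 and 5.46 after BPA for 4 hr and 5.21, 4.91 and 4.66 after BPA for 24 hr. All 6 BPA arrays lay above all 3 controls. The rise by limma was 2.84-fold at 4 hr (log2 1.51, SE 0.22, adjusted p = 0.00707) and 2.19-fold at 24 hr (1.13, SE 0.22, adjusted p = 0.0268). On slides that held both a control and BPA arrays it was 1.37 at 4 hr, and 1.26 and 1.41 at 24 hr. The 4 hr call was lost with normexp background correction, with slide as a fixed block and without BPA 4 hr replicate 3 (log2 1.43), and the 24 hr call was lost with normexp, with a fixed slide block, with the replicate block (adjusted p = 0.0666), with only the arrays compared (0.11) and without control replicate 1 or 3 or BPA 24 hr replicate 1 or 2, though the direction held. Among all 21455 genes, a fixed slide block called 0 at either time. Normexp called 15 higher and 0 lower at 4 hr and 0 at 24 hr, so these losses are not particular to Sod2.

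Of the members, 1 was thus higher at each time (2.77% of all 21455 genes tested at 4 hr and 1.5% at 24 hr). By limma 0 were lower (1.47% and 2.16%), with 0 members lower at an unadjusted p below 0.05 at 4 hr and 1, Gpx1, at 24 hr, and an error-weighted ordinary model called the same number of members, 1 at each time. Gpx3 read -2.37, -2.24 and -2.65 in controls, -2.11, -2.79 and -2.44 after BPA for 4 hr, and -1.44, -1.66 and -0.86 after BPA for 24 hr. Its 3 arrays at 24 hr were above all others, with a log2 difference from control of 1.10 (SE 0.27, limma adjusted p = 0.0612), which was called with slide as a random block. Prdx6 differed by 0.25 (95% interval -0.35 to 0.86) at 4 hr and 0.66 (0.06 to 1.27, adjusted p = 0.231) at 24 hr. Its probe 2 was called higher at 24 hr (1.02, SE 0.21, adjusted p = 0.0349), while probe 1 differed by 0.08 (SE 0.61) and probe 4 by 0.69 (SE 0.27), neither called. Gpx1 differed by -0.39 (-0.92 to 0.13) and -0.62 (-1.15 to -0.10, adjusted p = 0.2).

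The remaining 6 members, Sod1, Sod3, Cat, Gpx4, Prdx3 and Prdx5, had intervals that included 0 at both times. Those for Sod3 were the widest, -2.10 to 0.41 at 4 hr and -2.13 to 0.38 at 24 hr, with single arrays from -3.73 to -1.14. The median residual SD of the members was 0.33 in the second set and 0.07 in the first, so the second set could show only larger changes.

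**Figure D5:**
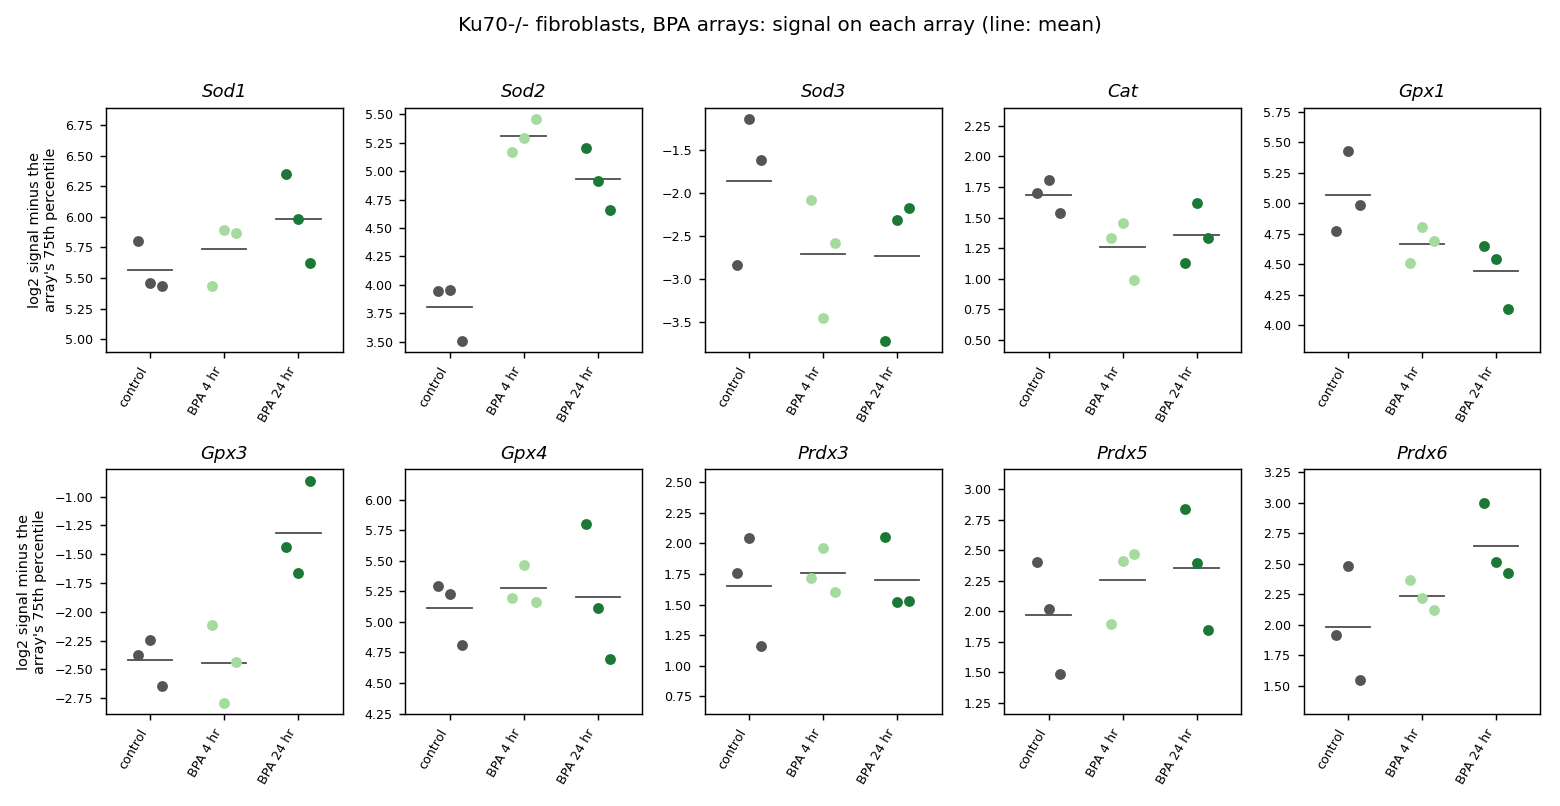
Normalized log2 signal of the 10 members on each of the 9 arrays of the second set, in 3 groups of 3, with a line at each group mean and a vertical axis of its own for each panel. Sod2 rises from a mean of 3.80 to 5.31 and 4.93 without overlap, and Gpx3 is highest at 24 hr.

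Between 4 and 24 hr most members changed after KBrO3 alone, with 3 higher at 24 hr (32.5% of all genes) and 6 lower (43.1%), and after co-exposure, with 4 higher (33.6%) and 5 lower (49.1%). Prdx6 came down 3.70-fold in the cells given KBrO3 alone and 2.46-fold in co-exposed cells. Sod2 came down 2.08-fold and 2.10-fold, and Gpx1 went up 1.32-fold and 1.40-fold. After BPA alone limma called 0 members higher (1.06%) and 0 lower (2.92%), with 1 member, Gpx3, at an unadjusted p below 0.05. The co-exposure minus KBrO3 difference changed between 4 and 24 hr for 7 of the 10 members by the interaction test, where 55.8% of all genes were called in either direction. The KBrO3 4 hr arrays shared no slide with any co-exposed or 24 hr array, so neither this interaction nor the change from 4 to 24 hr after KBrO3 alone can be told apart from slide and scan. Co-exposed arrays at 4 and 24 hr also shared no slide or scan, so their change has no value within a slide.

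Over the 15 arrays of the first set, the genes whose pattern was most like that of the 3 members with the widest range of group means were found by Pearson's r among 18413 genes. For Prdx6 they included Slc7a11 (r = 0.998), the cystine transporter, and Foxc2 (0.996), a transcription factor. For Gpx3 they were Megf6 (0.995), Aspn (0.994) and Ogn (0.993), the last pair being proteoglycans of the extracellular matrix. Gpx3 cleared the background on 10 of the 15 arrays, and its wide range comes from the 24 hr arrays that mostly did not. For Sod2 they were Lcn2 (0.990), a secreted iron-binding protein, Cblb (0.989), a ubiquitin ligase, and Arnt2 (0.986). The arrays share groups and slides, and these values only describe likeness.

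A list of 15 genes, of the thioredoxin and glutaredoxin systems together with sulfiredoxin, the sestrins and Ccs, is given beside the share of all genes called. By limma at 4 hr, 10 were higher and 4 lower after KBrO3 alone (34.5% and 36.6% of all genes), with a median of 0.69 against 0.05 over all genes, and 10 were higher and 4 lower after co-exposure (40.4% and 38.3%, median 0.56). Srxn1, sulfiredoxin, which reactivates overoxidized peroxiredoxins, rose 33.3-fold after KBrO3 alone (log2 5.06, SE 0.07, adjusted p = 7.92e-14) and 27.8-fold after co-exposure (4.80, SE 0.07, adjusted p = 8.1e-14). Sesn3 fell most, 2.39-fold and 3.15-fold. At 24 hr 5 were higher and 6 lower after KBrO3 alone (29.7% and 36.7% of all genes), and 10 were higher and 4 lower after co-exposure (31.5% and 38.8%), where Srxn1 stood 3.08-fold above control (1.62, SE 0.07, adjusted p = 1.15e-09) against 1.57-fold after KBrO3 alone. After BPA alone 3 were higher at each time (2.77% of all genes at 4 hr and 1.5% at 24 hr), with Sesn2, a sestrin, rising most at both, 2.28-fold at 4 hr (1.19, SE 0.25, adjusted p = 0.0313) and 2.58-fold at 24 hr (1.37, SE 0.25, adjusted p = 0.0211).

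Other glutathione peroxidases and peroxiredoxins were 8 genes, of which 6 could be tested in the first set. At 4 hr 2 were higher and 3 lower after KBrO3 alone (34.5% and 36.6% of all genes) and 1 was higher and 5 lower after co-exposure (40.4% and 38.3%). Prdx1, the main cytosolic peroxiredoxin, rose most in each, 3.97-fold after KBrO3 alone (log2 1.99, SE 0.03, limma adjusted p = 2.41e-13) and 4.63-fold after co-exposure (2.21, SE 0.03, adjusted p = 8.4e-14). At 24 hr it was the 1 gene higher in each, 1.54-fold and 1.97-fold, (29.7% and 31.5% of all genes), with 4 lower in each (36.7% and 38.8%). Gpx8, of the endoplasmic reticulum, fell most at 4 hr, 1.40-fold and 1.87-fold.

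Of 20 oxidases that make superoxide or hydrogen peroxide, 14 were tested in the first set. After KBrO3 alone 2 were higher and 9 lower at 4 hr (34.5% and 36.6% of all genes) and 4 higher and 8 lower at 24 hr (29.7% and 36.7%). After co-exposure 2 were higher and 8 lower at 4 hr (40.4% and 38.3%), and 5 higher and 7 lower at 24 hr (31.5% and 38.8%). Noxo1, an organizer of an NADPH oxidase, was 6.37-fold lower at 4 hr after KBrO3 alone (log2 -2.67, SE 0.07, limma adjusted p = 1.01e-11). Aoc3, a cell-surface amine oxidase, was 13.6-fold lower at 24 hr after KBrO3 alone (-3.77, SE 0.10, adjusted p = 2.2e-11), and in co-exposed cells the fall was at least 25.3-fold (adjusted p = 6.8e-13), where no array was well above background. Xdh, xanthine oxidoreductase, rose 8.47-fold at 24 hr after BPA alone (3.08, SE 0.35, adjusted p = 0.00448), where Aoc3 was 7.57-fold lower (-2.92, SE 0.34, adjusted p = 0.00448).

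Genes of selenoprotein synthesis, on which the glutathione peroxidases depend, numbered 6 tested. At 4 hr 3 were higher and 3 lower both after KBrO3 alone (34.5% and 36.6% of all genes) and after co-exposure (40.4% and 38.3%). Trit1, a tRNA-modifying enzyme, rose most, 2.62-fold with KBrO3 alone and 2.86-fold in co-exposed cells. At 24 hr 3 were higher and 2 lower after KBrO3 alone (29.7% and 36.7%) and 5 higher and 1 lower after co-exposure (31.5% and 38.8%). Selenop, the secreted selenium carrier, fell most at 24 hr, 5.45-fold after KBrO3 alone (log2 -2.45, SE 0.07, limma adjusted p = 4.54e-11) and 4.34-fold after co-exposure (-2.12, SE 0.07, adjusted p = 9.35e-11).

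Peroxisome assembly genes, which build the organelle that holds catalase, numbered 15 tested. At 4 hr 3 were higher and 9 lower after KBrO3 alone (34.5% and 36.6% of all genes) and 2 higher and 9 lower after co-exposure (40.4% and 38.3%). Pex11a, a factor of peroxisome division, fell most, 2.77-fold (log2 -1.47, SE 0.07, limma adjusted p = 2.11e-09) and 3.96-fold (-1.99, SE 0.07, adjusted p = 1.12e-10). At 24 hr 4 were higher and 4 lower after KBrO3 alone (29.7% and 36.7%) and 8 higher and 2 lower after co-exposure (31.5% and 38.8%). Against KBrO3 alone at 24 hr, 9 of the 15 were higher in the co-exposed cells (24.9% of all genes).

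Transcription factors and coactivators known to act on these genes numbered 9. At 4 hr 7 were higher and 1 lower both after KBrO3 alone (34.5% and 36.6% of all genes) and after co-exposure (40.4% and 38.3%). At 24 hr 4 were higher and 3 lower after KBrO3 alone (29.7% and 36.7%), with Nfe2l2 and Nfkb1 among the lower, and 3 higher and 4 lower after co-exposure (31.5% and 38.8%). Foxo1 rose most at 4 hr after KBrO3 alone, 3.34-fold (log2 1.74, SE 0.05, limma adjusted p = 1.56e-11). Nfe2l2, which encodes NRF2, rose most at 4 hr after co-exposure, 2.62-fold (1.39, SE 0.05, adjusted p = 1.37e-10). After BPA alone for 4 hr Nfkb1, a subunit of NF-kappaB, was the 1 regulator called of 9, 2.90-fold higher (1.54, SE 0.21, adjusted p = 0.00514), where 2.77% of all genes were called higher. Of the 3 heme peroxidases tested in the first set, Pxdn, a peroxidase of the extracellular matrix, was lower in all 4 comparisons with control, by 1.17-fold to 2.26-fold (36.6, 38.3, 36.7 and 38.8% of all genes). Mpo, the myeloperoxidase of neutrophils, was higher after KBrO3 for 4 hr (1.72-fold, 34.5% of all genes) and lower after co-exposure for 24 hr, where it cleared the background on 1 of 3 arrays, and it was not called in the others. Lpo was called in none of the 4.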

How the data were processed

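RNA of Ku70-/- MEFs was hybridised to 1-colour Agilent mouse arrays, 24 in all. The authors scanned them and deposited processed intensity for each spot, made by Feature Extraction (9.5.3.1 in the file headers of the first set and 12.0.0.7 in those of the second), already background-subtracted. The deposited series value table holds the same intensities, with all 1080432 values equal to the scanner signal, so that as an alternative it could not differ. Here log2 of the processed intensity minus the array's 75th percentile was taken, outlier spots were left out and spots of a probe averaged. Each set was normalized and tested on its own with limma 3.58.1 in R 4.3.3 (lmFit and eBayes), on probes that cleared the background in all arrays of 1 or more groups, with Benjamini-Hochberg adjustment over all of them. A gene is its brightest probe. Scripts were tested on simulated data. All 10 members are named, and, from each pathway list, a selection of the called genes with the largest rise or fall in a comparison with control. The members and lists were chosen with earlier results of these data known. Samples were grouped by their labels. Alternatives were other normalizations, background corrections, filters, blocks, thresholds and leaving out each array. Replicate numbers did not pair the samples. For the 3 members of widest range, the genes of most similar pattern are named, of which 1 is not reported here.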

Additional observations from a re-analysis of the deposited data

Results flagged for a closer look

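Effects that differed between times are listed here as log2 values, all past an adjusted p of 0.05 by limma. The level at 24 hr minus that at 4 hr after KBrO3 alone was -0.43 for Sod1 (0.17 with quantile normalization), -1.05 for Sod2, -0.20 for Sod3, 0.40 for Gpx1, -2.16 for Gpx3, 0.22 for Gpx4, 0.31 for Prdx3, -0.99 for Prdx5 and -1.89 for Prdx6. After co-exposure it was 0.25 for Sod1 (-0.49 with the mean over its probes), -1.07 for Sod2, -0.74 for Sod3, 0.49 for Gpx1, -3.44 for Gpx3, 0.53 for Gpx4, 0.12 for Prdx3, -0.28 for Prdx5 (0.18 with median scaling) and -1.30 for Prdx6. At 24 hr Gpx3 cleared the background on 1 of 3 arrays after KBrO3 alone and on 0 of 3 after co-exposure, so all its values here, the interaction included, are fitted values and not measured sizes.

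The co-exposure minus KBrO3 difference changed between 4 and 24 hr by the interaction test for 7 members, by 0.67 for Sod1, -0.54 for Sod3, -1.27 for Gpx3 (0.05 with normexp), 0.31 for Gpx4, -0.20 for Prdx3 (0.11 with median scaling), 0.71 for Prdx5 and 0.59 for Prdx6. The KBrO3 4 hr arrays shared no slide with the co-exposed or 24 hr arrays, so these values and those for KBrO3 alone cannot be told apart from slide and scan. Co-exposed arrays at 4 and 24 hr also shared no slide or scan, so their change has no value within a slide. Groups of 3 arrays were not tested for single outlying arrays.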

How the results depend on the processing

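Over all alternatives 2315 values kept their side of the threshold, 258 calls were lost, 37 were gained and 11 changes of sign were counted. A change of sign was counted only for values called in the main or the alternative setting. Values called in neither, such as Sod1 after KBrO3 for 24 hr with median scaling, could change sign and stay among the 2315. Of the values kept, 120 came from the series value table, which equals the scanner signal and could not differ. Normexp moved the median of all genes against control by -0.47 to -0.32 among the KBrO3 arrays, and median scaling moved it by up to 0.32, and by 0.46 for co-exposure at 24 against 4 hr. Changes of sign gave 0.18 (normexp) for Prdx5 after co-exposure for 4 hr, 0.50 and -0.49 (mean over probes) for Sod1 after co-exposure at 4 hr and from 4 to 24 hr, and, with quantile normalization, 0.21 for Sod1 and 0.12 for Gpx1 after KBrO3 for 24 hr, -0.085 for Gpx4 with BPA added at 24 hr and 0.17 for Sod1 from 4 to 24 hr after KBrO3. Median scaling gave 0.18 for Prdx5 from 4 to 24 hr after co-exposure, and interactions of 0.11 for Prdx3 and 0.30 for Sod2, and normexp gave 0.052 for Gpx3. The cause was not tested.

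Members called are given in the order KBrO3 4 hr, co-exposure 4 hr, KBrO3 24 hr, co-exposure 24 hr, BPA added at 4 and 24 hr, BPA alone at 4 and 24 hr. They were 5, 8, 8, 8, 9, 8, 1 and 1. The methods' thresholds gave 1, 2, 3, 4, 0, 2, 0 and 0, with 4 and 3 for 24 against 4 hr after KBrO3 and co-exposure and 1 for the interaction. A fold beyond 1.5 gave 1, 3, 3, 4, 0 and 3 in the first set, 4 and 4 for 24 against 4 hr and 4 for the interaction. One fit of all 24 arrays gave 3, 4, 4, 5, 2, 3, 2 and 4, with 5 and 2 for 24 against 4 hr after co-exposure and BPA and 2 for the interaction. Normexp gave 0 and 3 for BPA added, 0 and 0 for BPA alone and 1 for the interaction, and median scaling gave 3 for KBrO3 4 hr. For BPA alone, a fixed slide block gave 0 and 0, a random slide block gave 2 at 24 hr, and the replicate block and the fit of only the arrays compared each gave 0 at 24 hr. For 24 against 4 hr after BPA, quantile normalization, median scaling, the mean over probes and the filter on every array each gave 1.

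Leaving out each array in turn gave 3 to 5, 6 to 7, 8 to 8, 8 to 9, 8 to 9, 7 to 9, 0 to 1 and 0 to 1, with 8 to 9 for both 24 against 4 hr comparisons of the first set, 0 to 0 after BPA and 7 to 7 for the interaction. The count of 3 for KBrO3 4 hr came without control replicate 3. Same-numbered arrays had a mean correlation of deviations of -0.03 (first set) and 0.0020 (second set). The second set lacked mean spot signal, so its normexp used median signal.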
